A study of Homo sapiens with 6 samples.

Results

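The neutrophil-attracting CXC chemokine genes CXCL1, CXCL2, CXCL3, CXCL5, CXCL6 and CXCL8 lie within 359 kb of chromosome 4. They were chosen by name as ligands of the receptor CXCR2 that carry the ELR (glutamate, leucine, arginine) sequence ahead of their first cysteines, and they are 6 of the 63677 genes in the count table. PPBP, a further gene of this kind in the same cluster, was not among those chosen and is given with the neighboring genes. RNA-Seq was performed on RPMI8226 cells, an established line of wild-type genotype from human multiple myeloma, a cancer of plasma cells. The cells were given 100 nM GST-PTR1 or, as the control, 100 nM GST for 6 hr, with 3 libraries of each and 6 in all. GST-PTR1 is the PTR1 domain of HAPLN1, a protein that links hyaluronan to proteoglycans in the matrix, joined to glutathione-S-transferase (GST). Both proteins were made in Escherichia coli. The authors reported bacterial LPS a few orders of magnitude below what their NF-κB binding assay can detect in this line. Its part in the chemokine results was not tested here. The data cover 1 line, 1 dose and 1 time, so they describe mRNA at that time and no secreted protein. The count table names its libraries GST003, GST004 and GST005, and PTR002, PTR004 and PTR005 for GST-PTR1, and values are given in that order.

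Chemokines of this group are small secreted proteins that bind CXCR2 on neutrophils, and CXCL6 and CXCL8 also bind CXCR1, so that neutrophils move toward their source. Their genes arose by duplication, stand side by side, and are known as fast-responding targets of NF-κB, which binds κB sites close to their starts. Their mRNAs are short-lived because proteins that recognize AU-rich elements and stem-loops bring them to decay.

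The labelled cell type was checked first. Of 11 plasma cell marker genes, 10 were well enough expressed to be tested, with a summed level of 4169 to 4905 CPM (counts scaled to the total of the library) with GST and 4046 to 4979 CPM with GST-PTR1. CD27 was nearly absent, with 1 count in all. SDC1 (CD138), TNFRSF17 (BCMA) and XBP1 were lower with GST-PTR1, and PRDM1, IRF4 and SLAMF7 were higher. Their part in the chemokine results was not tested. The 7 myeloid markers summed to 0.711 to 1.5 CPM with GST and 0.586 to 0.943 CPM with GST-PTR1, with FCGR3B and MPO at 0 in every library. The 3 T cell markers summed to at most 0.120 and 0.0366 CPM, with CD2 at 0, and the 5 stromal and endothelial markers to 0.30 to 0.682 and 0.449 to 0.550 CPM, with COL1A2 and CDH5 at 0. The 4 epithelial markers summed to 64.7 to 78.2 and 62.1 to 69.4 CPM, nearly all of it EPCAM, with KRT19 at 0. The libraries held 15202503 to 23453473 counts with GST and 22874133 to 44688737 with GST-PTR1, so that 3 counts, taken as the limit that a count of 0 allows, were worth 0.12 to 0.18 CPM and 0.0761 to 0.135 CPM. This limit covers counting error only.

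The 110 bases before the start of each gene are printed because all 6 hold the same κB match, whatever their change in mRNA. The sequences are from RefSeq (GRCh38.p14, whose coordinates differ from those of the GRCh37 count table), which had an entry for 6 of the 6 genes. They are written 5′ to 3′ on the strand of the gene and end at the base before the start, and capitals mark the κB match.
CXCL8, chr4:73740459-73740568, forward strand: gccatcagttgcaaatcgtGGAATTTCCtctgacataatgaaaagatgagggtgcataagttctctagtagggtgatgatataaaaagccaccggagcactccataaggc
CXCL6, chr4:73836568-73836677, forward strand: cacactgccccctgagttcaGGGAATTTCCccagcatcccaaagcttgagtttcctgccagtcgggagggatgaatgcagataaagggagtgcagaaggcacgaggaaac
CXCL5, chr4:73998678-73998787, reverse strand: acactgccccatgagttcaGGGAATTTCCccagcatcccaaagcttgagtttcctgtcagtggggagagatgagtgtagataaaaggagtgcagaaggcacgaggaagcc
CXCL3, chr4:74038690-74038799, reverse strand: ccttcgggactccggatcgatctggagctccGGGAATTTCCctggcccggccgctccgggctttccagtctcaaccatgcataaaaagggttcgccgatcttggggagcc
CXCL1, chr4:73869283-73869392, forward strand: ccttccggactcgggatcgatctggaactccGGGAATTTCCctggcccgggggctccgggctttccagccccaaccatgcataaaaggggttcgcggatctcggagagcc
CXCL2, chr4:74099196-74099305, reverse strand: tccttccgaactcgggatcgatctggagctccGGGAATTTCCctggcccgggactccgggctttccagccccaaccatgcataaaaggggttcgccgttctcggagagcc

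The 9 letters GGAATTTCC, searched on both strands in the 250 bases before the start, were found in 6 of the 6 promoters. They were found in 145 (0.413%) of the 35116 promoters in the same RefSeq table. These letters are 1 exact string that the 6 promoters share and do not cover all forms of a κB site. Several of the 6 promoters are also alike in sequence, as given below. The contrast with all promoters is therefore a description and not a test. A 10-letter form with a further G in front, which contains the 9 letters, was found in the 5 promoters other than that of CXCL8 and in 50 (0.142%) of all. The 9-letter match began 77 or 78 bases before the start in CXCL1, CXCL2 and CXCL3 and 89 to 91 bases before it in CXCL5, CXCL6 and CXCL8. CXCL8 alone held the AP-1 letters TGANTCA, 137 to 131 bases before its start and outside the printed stretch, which 6.57% of all promoters held, and the TATA letters TATAAA, 31 to 26 bases before its start, which 10.7% held. The GC-box letters GGGCGG were found in CXCL1, CXCL3 and CXCL6 and in 42.6% of all. Over the 250 bases, the promoters of CXCL5 and CXCL6 were identical at 85.9% of their aligned bases with 2 gap bases, and those of CXCL1 and CXCL3 at 86.8% with 16, while CXCL8 was identical to the other 5 at 49.3% to 53.7%. These matches describe letters in the reference and are not measurements of binding.

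**Figure D1:**
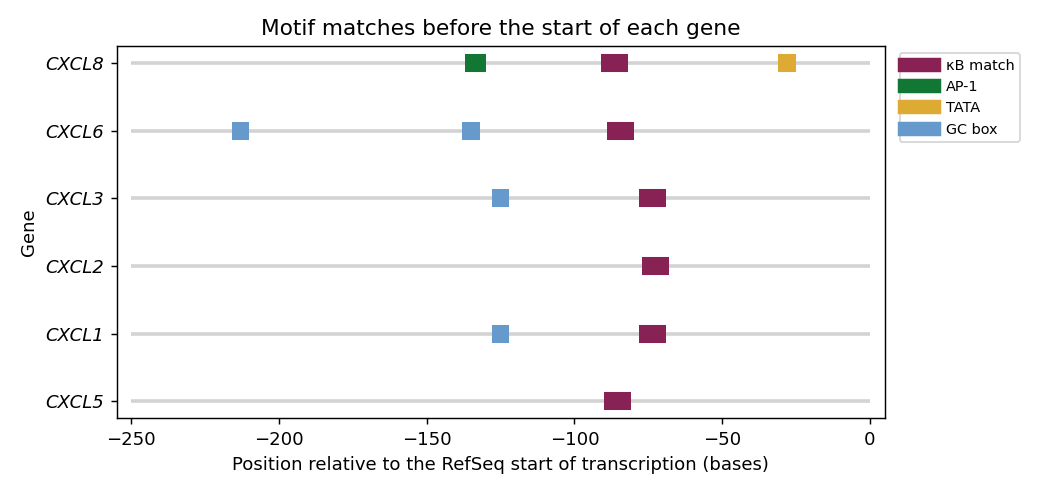
Positions of matches to 4 motifs in the 250 bases before the RefSeq start (0 on the horizontal axis, in bases) of each gene, one gray line per gene. Every gene has 1 κB match (dark red), between 69 and 91 bases before its start, and CXCL8 alone has an AP-1 and a TATA match.

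With GST-PTR1, mRNA of CXCL8, CXCL6, CXCL3, CXCL1 and CXCL2 was higher than with GST, while CXCL5 did not pass the test. CXCL8 rose about 100.5-fold, CXCL3 65.1-fold and CXCL6 32.7-fold, and CXCL1 and CXCL2 went from 0 counts to low but nonzero levels. When all 16926 genes with enough counts were tested together (edgeR, quasi-likelihood, Benjamini-Hochberg), 5 of the 6 were higher at an adjusted p under 0.05 and none was lower. Of all genes tested, 9.15% were higher and 11.4% were lower at that threshold, 20.6% in either direction. The same 5 genes were higher by at least 2-fold, which held for 3.68% of all genes. All 6 passed the filter on low counts, but CXCL1, CXCL2 and CXCL3 had under 10 counts in every GST library and passed through their GST-PTR1 libraries, so their passing already depended on a high level there. The median log2 fold change of the 6 was 6.34, or 3.88 with CXCL1 and CXCL2 set at their lower bounds, against 0.01 over all genes tested. In bulk RNA, more cells that express a gene and more mRNA per cell cannot be told apart. The labels number the libraries as replicates, and the authors call them biological replicates without naming separate cultures. The p-values therefore measure the spread between these libraries.

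CXCL8 (interleukin-8, ENSG00000169429) binds both CXCR1 and CXCR2. It lies at chr4:74606223-74609433 on the forward strand of GRCh37. It had 32, 79 and 80 counts with GST and 5030, 15935 and 7597 with GST-PTR1. On the RPKM scale (reads scaled by the length of the exons and by the TMM-scaled total of the library), its level was 0.846, 1.39 and 1.67 with GST and 99.3, 178 and 122 with GST-PTR1. The lowest GST-PTR1 library was far above the highest GST library, and PTR004, the most deeply sequenced library, was the highest. The mean rose from 1.30 ± 0.418 to 133 ± 40.4 RPKM (SD, n = 3 each). The log2 fold change was 6.65 (SE 0.28, 95% interval 6.03 to 7.27, edgeR adjusted p = 6.55e-08). For the 5 genes that were higher, an exact two-sided permutation test of log2 RPKM, with 0.05 RPKM added, gave p = 0.1 each. This is the smallest p that 3 libraries against 3 allow and means only that the treatments did not overlap. Of all genes tested, 19.2% had every GST-PTR1 library above every GST library. The 5 genes were picked by the edgeR test of the same counts, so the exact test is no separate support.

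CXCL6 (granulocyte chemotactic protein 2, ENSG00000124875) is the other ligand of both receptors. It lies at chr4:74702214-74714781 on the forward strand, 96.0 kb from the start of CXCL8. Its counts were 7, 19 and 9 with GST and 331, 808 and 528 with GST-PTR1. Its level was 0.193, 0.349 and 0.195 RPKM with GST and 6.81, 9.39 and 8.86 RPKM with GST-PTR1. The groups were far apart, and the spread within GST-PTR1 was small beside the difference. The log2 fold change was 5.03 (SE 0.24, 95% interval 4.49 to 5.57, edgeR adjusted p = 1.54e-07). Of its exon bases, 4.31% are shared with the pseudogene PPBPP1 on the same strand, and reads there were left out of the counts.

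CXCL3, CXCL1 and CXCL2 (GRO-γ, GRO-α and GRO-β) are close relatives that act through CXCR2. CXCL3 (ENSG00000163734, chr4:74902306-74904524, reverse strand) had 1, 6 and 3 counts with GST and 210, 501 and 265 with GST-PTR1. Its level rose from 0.0271, 0.108 and 0.0641 RPKM to 4.25, 5.73 and 4.38 RPKM, without overlap, a log2 fold change of 6.03 (SE 0.31, 95% interval 5.34 to 6.71, edgeR adjusted p = 2.63e-07). CXCL1 and CXCL2, by contrast, were at the limit of detection in the control cells. CXCL1 (ENSG00000163739, chr4:74735110-74736959, forward strand) had 0 counts in each GST library and 14, 46 and 20 with GST-PTR1, or 0.485, 0.901 and 0.566 RPKM. CXCL2 (ENSG00000081041, chr4:74962752-74965010, reverse strand) had 0 counts in each GST library and 26, 44 and 18 with GST-PTR1, or 0.778, 0.744 and 0.440 RPKM. Against the limit of 3 counts per GST library, CXCL1 was at least 5.71-fold higher and CXCL2 at least 6.65-fold higher on the CPM scale, with edgeR adjusted p = 6.42e-04 and 4.07e-04. PTR002, with 22874133 counts in all, was less deep than GST004, with 23453473, and still held 14 and 26 counts where GST004 held 0. The fitted fold changes of both genes depend on the prior count and are not given. Of the 50-base windows in the longest coding transcript, 5.73% in CXCL1, 9.24% in CXCL2 and 5.26% in CXCL3 also occur in another of the 6 genes, and 0% in CXCL5, CXCL6 and CXCL8. Reads that mapped to several places were not counted, so the counts of the first 3 are uncertain. Only these 6 genes and windows of 50 bases were compared, so the percentages do not set a limit on the reads lost.

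CXCL5 (ENA-78, ENSG00000163735) also acts through CXCR2. It lies at chr4:74861359-74864496 on the reverse strand, between CXCL1 and CXCL3. It had 12, 29 and 19 counts with GST and 22, 49 and 44 with GST-PTR1. Its level was 0.284, 0.459 and 0.355 RPKM with GST and 0.389, 0.490 and 0.635 RPKM with GST-PTR1, and the groups overlapped. The log2 fold change was 0.44 (SE 0.29, 95% interval -0.19 to 1.08, edgeR adjusted p = 0.291), and the exact two-sided permutation test gave p = 0.2 (n = 3 each). The interval ends far below the fold changes of CXCL8, CXCL6 and CXCL3, and it does not show that CXCL5 was the same in both treatments. Its promoter, aligned above with that of CXCL6, carries the same 10-letter κB match.

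**Figure D2:**
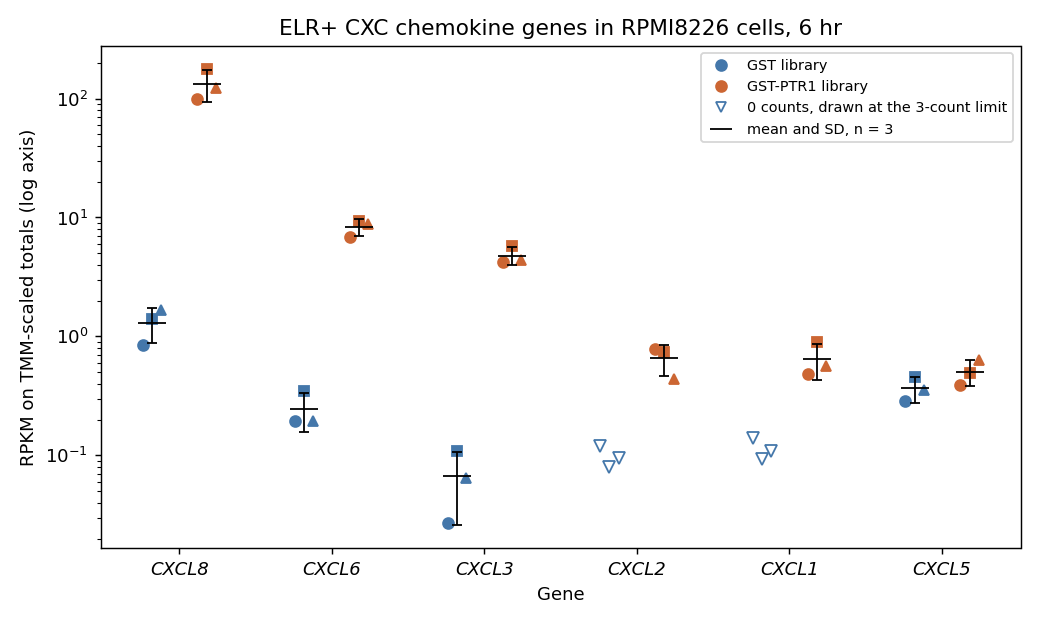
RPKM of each gene (log axis) in the 3 GST libraries (blue) and the 3 GST-PTR1 libraries (orange), with black lines for the mean and SD. Open triangles are libraries with 0 counts of CXCL1 or CXCL2, drawn at the level of 3 counts. CXCL8 stands at 99.3 to 178 RPKM with GST-PTR1, and CXCL5 is the gene whose groups overlap.

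The order of the levels changed between the treatments. With GST, mean RPKM fell from CXCL8 (1.30 ± 0.418) to CXCL5 (0.366 ± 0.0877), CXCL6 (0.246 ± 0.0896) and CXCL3 (0.0665 ± 0.0408), with CXCL1 and CXCL2 at 0. CXCL5 and CXCL6 overlapped between libraries and the other neighbors in that order did not, apart from the genes at 0. With GST-PTR1, the order was CXCL8, CXCL6 (8.36 ± 1.37 RPKM) and CXCL3 (4.79 ± 0.821 RPKM), followed by CXCL2 (0.654 ± 0.186), CXCL1 (0.650 ± 0.221) and CXCL5 (0.505 ± 0.124), whose ranges overlapped. CXCL5 therefore went from a place shared with CXCL6 to the lowest places, shared with CXCL1 and CXCL2, without a called change of its own. The place of CXCL3 depends on the exon length used: the table gives 2219 bases, and its longest coding transcript has 1075, with which CXCL3 (9.88 ± 1.69) and CXCL6 (10.6 ± 1.74) overlapped in the GST-PTR1 libraries.

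The summed level of the 6 genes rose from 1.98 ± 0.546 to 148 ± 42.6 RPKM (SD, n = 3 each). CXCL8 made up 65.4 ± 6.78% of the sum with GST and 89.7 ± 1.32% with GST-PTR1, which an exact two-sided permutation test put at p = 0.1 (n = 3 each), the smallest possible. The share of CXCL5 was 18.8 ± 2.89% and 0.354 ± 0.106%, and that of CXCL6 was 12.7 ± 3.57% and 5.78 ± 0.859%, both without overlap and with the same exact p. The share of CXCL3 was 3.17 ± 1.38% and 3.31 ± 0.440%, with exact p = 0.8 (n = 3 each). Shares of 1 sum move together, so a higher share of CXCL8 lowers the total of the other shares, though not each of them.

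**Figure D3:**
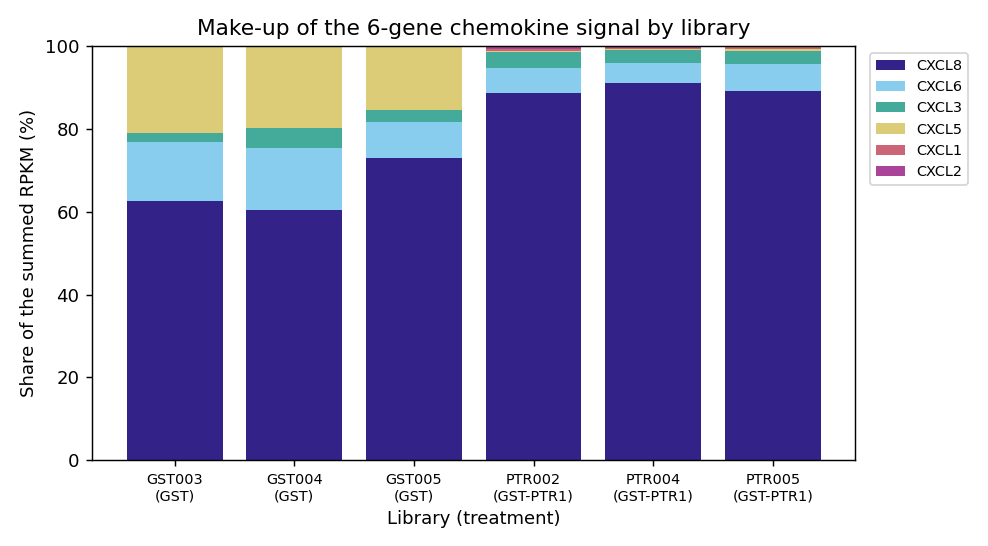
Share of each gene (%) in the summed RPKM of the 6 genes, one stacked bar per library. CXCL8 takes 89.7% on average with GST-PTR1 and 65.4% with GST, and the CXCL5 band, 18.8% with GST, is nearly gone with GST-PTR1.

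Ratios between genes within a library do not depend on the scaling of the libraries, but for genes with few counts they depend on what is added before the logarithm. CXCL1 and CXCL2 had 0 counts in every GST library, so the GST ratios of the 9 pairs that hold either gene are set by the 0.05 RPKM added and are not read here. The other 6 pairs were measured in both treatments. The log2 ratio of CXCL5 to CXCL6 was 0.46, 0.35 and 0.72 with GST and -3.96, -4.13 and -3.70 with GST-PTR1, a difference of -4.44, and -4.67 with nothing added. The ratio of CXCL6 to CXCL8 differed by -1.78, and by -1.56 with nothing added. Both pairs differed without overlap either way. The ratio of CXCL3 to CXCL6 also differed without overlap either way, but by 0.57 with the offset and 1.24 without it. The ratio of CXCL3 to CXCL8 differed by -1.21 with the offset and by -0.32, with overlapping treatments, without it, so CXCL3 and CXCL8 were not shown to rise by different amounts. With nothing added, 5 of the 6 pairs differed without overlap (exact permutation p = 0.1, adjusted p = 0.12, n = 3 each), the smallest p this design allows, and CXCL3 to CXCL8 gave exact p = 0.7.

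Within 500 kb on either side of the cluster, the table lists 27 other genes, of which 17 had 0 counts in every library and 23 had at most 3. The platelet chemokine genes PF4, PF4V1 and PPBP, which stand among the 6, were at 0 in every library of both treatments, as were the pseudogenes CXCL1P1, PPBPP1 and PPBPP2. UMLILO, a long non-coding RNA gene of the same locus that was picked out after its values were seen, was also at 0. Of the 3 neighbors that could be tested, none was higher and 1 was lower, where 11.4% of all genes tested were lower. That gene was RASSF6, a Ras-association domain gene whose start coordinate is 169 kb before that of CXCL8, with 12, 18 and 22 counts with GST and 5, 8 and 5 with GST-PTR1 (log2 fold change -2.01, SE 0.35, edgeR adjusted p = 0.0023). MTHFD2L, a mitochondrial folate enzyme gene beyond CXCL2, had 21.0 ± 0.810 and 21.9 ± 3.61 CPM (log2 fold change 0.07, adjusted p = 0.762). ENSG00000251017, a gene without a symbol between CXCL3 and CXCL2, had 3.58 ± 0.0973 and 2.98 ± 0.0228 CPM, without overlap but not past the edgeR test (log2 fold change -0.27, adjusted p = 0.282). AREG, too low to be tested, had 1, 0 and 1 counts with GST and 3, 9 and 5 with GST-PTR1, without overlap. ENSG00000221639, also too low to be tested, went the other way without overlap in CPM, with 1, 1 and 2 counts and 0, 1 and 0.

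**Figure D4:**
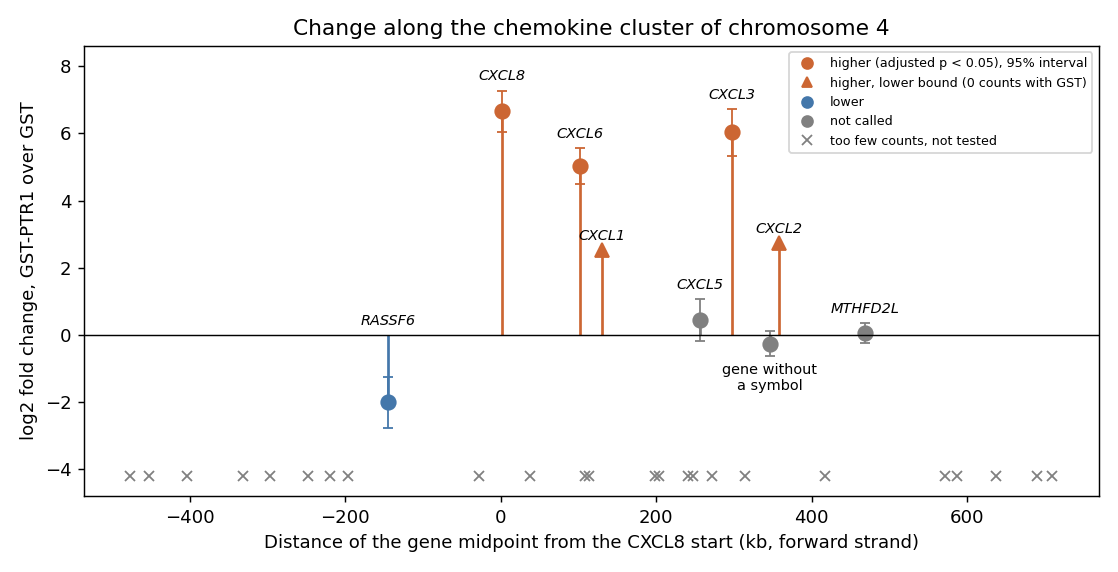
Log2 fold change (GST-PTR1 over GST) of each gene against the distance of its midpoint from the start of CXCL8 (kb), with 95% intervals. Orange triangles are the lower bounds of CXCL1 and CXCL2, and gray crosses along the bottom, which carry no value, are genes with too few counts to test. Such genes lie between the raised ones, and CXCL5 (0.44) stands between CXCL1 and CXCL3.

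The genes were then set beside those of their pathway, beginning with the receptors. CXCR2 had 6, 11 and 8 counts with GST and 4, 7 and 3 with GST-PTR1, or 0.394 ± 0.0423 and 0.156 ± 0.0404 CPM, without overlap and too low to be tested. CXCR1 had 1 count in each treatment, and ACKR1, a decoy receptor that binds many chemokines, had none. With a filter of at least 1 count in any library, 2 of these receptors were tested and 0 were called. Mature chemokines are cut or modified by proteases and other enzymes, and of 10 such genes matched in the table, 9 had too few counts to test. ANPEP (aminopeptidase N) was the 1 tested, with 0.452 ± 0.0441 and 0.531 ± 0.0733 CPM (log2 fold change 0.26, adjusted p = 0.593).

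Most of the genes listed for the control of transcription of these chemokines were higher. Of 19 genes for NF-κB and IκB proteins, AP-1 and C/EBP factors and other regulators, 16 were higher, 13 of them by at least 2-fold. None was lower, and the median log2 fold change was 1.84. Of all genes tested, 9.15% were higher, and 3.68% were higher by at least 2-fold. NFKBIZ, an atypical IκB protein that acts in the nucleus, rose 11.8-fold, from 17.9 ± 1.29 to 211 ± 24.4 CPM. NFKBIA (IκBα, which holds NF-κB in the cytoplasm) rose 8.11-fold and JUNB (an AP-1 subunit) 8.55-fold. CEBPD, a C/EBP factor, rose 32.2-fold, from 0.467 ± 0.0819 to 15.0 ± 2.01 CPM. Their edgeR adjusted p-values were 2.26e-08, 3.39e-08, 6.55e-08 and 7.23e-08. The 3 that did not pass were SP1, CUX1 and HMGA1, with log2 fold changes of -0.12, -0.03 and -0.01. RELA, with a log2 fold change of 0.35, and REL, with 0.66, were near the threshold and were not called under some settings.

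Genes for mRNA stability and decay were divided. Of 13, all tested, 5 were higher and none was lower, where 9.15% of all genes tested were higher and 11.4% were lower. The median log2 fold change of the 13 was 0.10. ZC3H12A (Regnase-1), an endonuclease that cuts stem-loops in cytokine mRNAs, rose 7.04-fold, from 15.3 ± 2.11 to 108 ± 4.06 CPM (edgeR adjusted p = 7.55e-08). ZFP36 (tristetraprolin), which brings AU-rich mRNAs to decay, rose 3.70-fold, and its relative ZFP36L1 rose 2.47-fold. TRAF3IP2 (Act1), an adaptor of the IL-17 receptor that stabilizes chemokine mRNA, rose 3.90-fold, from 1.11 ± 0.332 to 4.43 ± 0.814 CPM. The fifth was ARID5A, an RNA-binding protein that protects cytokine mRNAs, with a log2 fold change of 0.58. The raised genes thus include proteins known to shorten the life of such mRNAs and proteins known to lengthen it.

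Of the other CXC chemokine genes, some were raised, CXCL16 was expressed but not called, and the rest had few or no counts. Of 11, 5 were tested, of which 4 were higher and none was lower, where 9.15% of all genes tested were higher. The median log2 fold change of the 5 was 4.79. CXCL9, CXCL10 and CXCL11, which attract T cells through CXCR3 and lie elsewhere on chromosome 4, rose 27.7-fold, 30.6-fold and 47.8-fold, with edgeR adjusted p = 1.21e-06, 1.99e-06 and 3.92e-07. CXCL12, the ligand of CXCR4, rose 2.04-fold, from 441 ± 32.7 to 898 ± 158 CPM. CXCL16 was not called and had a log2 fold change of 0.14, and PF4, PF4V1, PPBP and CXCL14 had 0 counts in every library. CXCL13, too low to be tested, had 1 count over all GST libraries and 22 over all GST-PTR1 libraries. That is a ratio of 15.5 with a 95% counting interval of 2.5 to 640. PPBP is the member of this list that carries the ELR sequence.

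A list of other neutrophil-acting and co-induced mediators of acute inflammation had 14 matched genes. Of these, 8 were tested and the 8 were higher, where 9.15% of all genes tested were higher. Genes entered this list as ones that rise together, so the count is a description and not a test. With a filter of at least 1 count in any library, 14 were tested and 10 were higher. The median log2 fold change of the 8 was 6.11, or 4.08 with genes at 0 with GST set at their bounds. As 5 of these 8 had under 10 counts in every GST library, they too passed the filter through their GST-PTR1 libraries. PTGS2 (cyclooxygenase 2) had 2, 3 and 1 counts with GST and 163, 410 and 293 with GST-PTR1, a 94.6-fold rise. TNF rose 24.0-fold, from 0.546 ± 0.109 to 13.4 ± 2.64 CPM, and CCL2, which attracts monocytes, rose 11.9-fold. IL6 had 2 counts over all GST libraries and 507 over all GST-PTR1 libraries, a ratio of 179 with a 95% counting interval of 49.2 to 1478. CSF3 (G-CSF, which drives neutrophil production), named after its values were seen, had 2 counts and 167 counts, a ratio of 58.8 with an interval of 16 to 490.

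**Figure D5:**
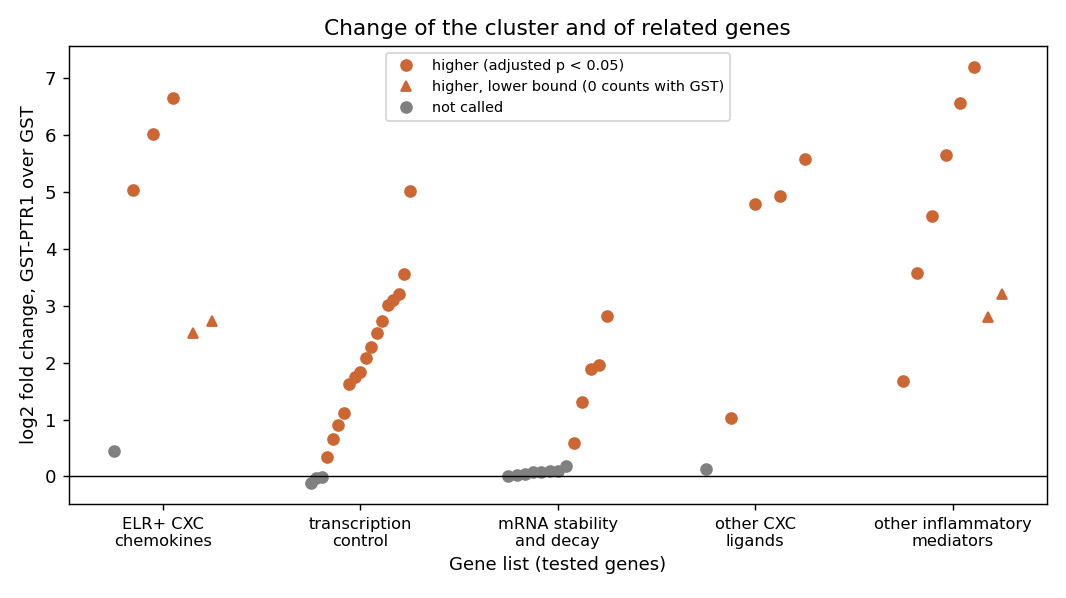
Log2 fold change (GST-PTR1 over GST) of every tested gene in 5 lists, one point per gene. Orange points passed the edgeR test as higher, gray points did not pass, and triangles are lower bounds for genes with 0 counts in every GST library. No tested gene of these lists was lower. In the mRNA stability list, 8 of 13 genes lie near 0.

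Finally, the libraries were searched for genes with a like pattern. The log2 CPM of each member was scaled to unit variance over the 6 libraries and the 6 were averaged, and 14828 other tested genes with at least 1 CPM on average were compared with this profile by Pearson's r over 6 libraries. As a description, with points that share treatment and library, r was 0.996 for CXCL6, 0.995 for CXCL3, 0.992 for CXCL8, 0.985 for CXCL1, 0.967 for CXCL2 and 0.749 for CXCL5, all of which are part of the profile. The 5 most alike genes were WNT4, FTH1P23, OPTN, CYP1A1 and FTH1P16, with r from 0.998 to 0.999, and 107 genes reached 0.99. WNT4, a secreted Wnt ligand, had 0.329 ± 0.175 CPM with GST and 9.88 ± 1.98 CPM with GST-PTR1. OPTN (optineurin) had 16.9 ± 1.79 and 37.9 ± 2.62 CPM, and CYP1A1, a cytochrome P450, had 0.640 ± 0.113 and 4.02 ± 0.845 CPM. FTH1P23 and FTH1P16 are pseudogenes of the ferritin heavy chain, whose reads cannot be told reliably from those of their near-identical copies, so their values are uncertain.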

How the data were processed

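RNA-Seq counts of RPMI8226 cells (3 GST and 3 GST-PTR1 libraries) were used as the authors deposited them: whole-number counts of reads per gene, without normalization, made with featureCounts 1.5.0-p1 on Ensembl release 75 (GRCh37), reverse-stranded, with multiply mapped and ambiguous reads left out. The aligner is not given in the sources used here. The table's column names give the treatment but not the replicate number. Symbols were matched by identifier for 39699 of 63677 genes. No 2 libraries of a treatment agreed within sampling noise (chi-square per gene of at least 7.66).

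GST-PTR1 was compared with GST using edgeR 4.0.16 in R 4.3.3 (TMM, filterByExpr, glmQLFit, glmQLFTest, Benjamini-Hochberg adjustment over 16926 genes), after a test on simulated data. CPM and RPKM were computed on TMM-scaled totals with the deposited exon lengths, which the authors gave in bases. Single values were tested by exact permutation, two-sided. Alternatives were library totals, DESeq2 1.42.0 and its size factors, limma 3.58.1 voom, 2 count filters, a 2-fold threshold, 1 RPKM added, CPM in place of RPKM, and each library left out. The transcript length and ratios with nothing added were chosen after seeing the data. Coding transcripts came from GENCODE release 29.

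Members, gene lists and tests were chosen with earlier results of these data known. Named are all members, neighboring genes that were tested or are chemokines, the receptors, per list the 4 tested genes with the smallest adjusted p and any called lower, and the 5 most alike genes. In addition, ARID5A, REL, RELA, SP1, CUX1, HMGA1, CXCL13, CXCL14, CXCL16, UMLILO, AREG, ENSG00000221639, CSF3 and marker genes were named after their values were seen.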

Additional observations from a re-analysis of the deposited data

How the results depend on the processing

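The 5 members called higher were 5 under every alternative except when each library had to reach 10 counts, a filter that left 2 members to test and 1 called (CXCL8). Under that filter 0 neighboring genes of 2 and 2 inflammatory mediators of 2 were called, because fewer genes were tested. Over 12 alternatives CXCL5 was never called, with a log2 fold change of 0.24 to 0.65 and an adjusted p of 0.202 to 0.623. Without each library in turn, the log2 fold change of CXCL8 was 6.39 to 6.85, that of CXCL6 4.88 to 5.42 and that of CXCL3 5.74 to 6.59, and the number of members called stayed at 5. The rise in the share of CXCL8 was 20.7 to 28.2 percentage points over 8 alternatives. Scaling by library totals moved the median over all genes by -0.20 on the log2 scale and changed no call of a member. Of the 16 transcription control genes called higher, 14 were called under that scaling and also without GST004 or without PTR005, REL and RELA being lost each time, and 15 were called without GST005 or without PTR002, RELA being lost. The ratio of CXCL3 to CXCL8 lost its separation with nothing added to the RPKM values. No paired analysis was possible because the numbers in the column names differ from the samples' replicate numbers. Levels of CXCL1 and CXCL2 rest on 14 to 46 counts per GST-PTR1 library, and 3 libraries against 3 cannot give an exact p below 0.1.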
